A study of Mus musculus with 2 samples.

Results

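Small nucleolar RNAs (snoRNAs) and small Cajal body RNAs (scaRNAs) were examined in total RNA of mouse erythroblasts, the cells that still have a nucleus on the way to red blood cells. The 86 genes described here, called members below, were chosen by their expected counts: genes of either RNA class whose mean over the 2 libraries was 100 or more. They comprised 76 snoRNA and 10 scaRNA genes, out of 1525 listed genes of these classes and 43346 Ensembl genes in all. Since the counts chose the members, their abundance is given as a description. Both libraries came from primary erythroblasts, taken from C57BL/6J males 5 to 6 weeks old, with no treatment or genotype contrast in the labels. Each was made from 100 ng of RNA depleted of ribosomal RNA with a ScriptSeq kit. They form 1 group of 2 biological replicates that share a donor record, and part of their spread may therefore be technical. The size range in the labels, which have no unit for it, is 138 to 1000 in replicate 2 and 200 to 764 in replicate 1.

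Box C/D snoRNAs guide the methylation of the ribose of ribosomal RNA by fibrillarin (Fbl), and box H/ACA snoRNAs guide the conversion of uridine to pseudouridine by dyskerin (Dkc1). scaRNAs carry the same boxes and guide these changes on the small nuclear RNAs of the spliceosome, in the Cajal body of the nucleus. A few snoRNAs, U3 among them, act in the cutting of the ribosomal RNA precursor instead. Most mammalian snoRNAs are released from introns of host genes, many of which encode ribosomal proteins and other parts of the translation machinery. Erythroblasts make ribosomes while they divide and shut this down as they mature.

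Replicate 2 held 22464724 expected counts and replicate 1 held 37312624, so 3 counts, the limit that a count of 0 allows, stood for 0.134 CPM in replicate 2 and 0.0804 CPM in replicate 1. Of 11 erythroblast markers, 11 had at least 1 coding-scaled TPM (TPM rescaled to the same fixed sum over nuclear protein-coding genes in each library) in both libraries, with a median of 3833 ± 345 (SD, n = 2). Markers of neutrophil precursors were also present, 7 of 7, with a lower median of 1180 ± 140 (SD, n = 2). Summed, they came to 19311 coding-scaled TPM (replicate 2) and 19670 (replicate 1). The erythroblast markers, summed likewise, came to 345734 (replicate 2) and 403639 (replicate 1). Macrophage markers reached at least 1 coding-scaled TPM in both libraries in 5 of 5 genes, and megakaryocyte markers in 3 of 4. B cell markers did so in 1 of 4 (Ighm). T cell markers did so in 0 of 4, with Cd3d and Cd8a at 0 counts. Which of these cells the small RNAs came from was not tested.

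The sequences that carry the findings are printed from the annotated transcripts on GRCm38 (mm10), 5′ to 3′. The U3 genes are shown because 4 of them can hardly be told apart. Rnu3b1 (chr11:87443237-87443452, plus strand) has the letters of Rnu3b3, and Rnu3b2 (chr11:87471368-87471582, plus strand) has those of Rnu3b4. The pairs differ in 1 column, the last base of Rnu3b1, which is in capitals. Rnu3a (chr10:40258467-40258680, plus strand) differs from Rnu3b1 in 32 of 216 aligned columns, and its differing bases are in capitals.
Rnu3b1: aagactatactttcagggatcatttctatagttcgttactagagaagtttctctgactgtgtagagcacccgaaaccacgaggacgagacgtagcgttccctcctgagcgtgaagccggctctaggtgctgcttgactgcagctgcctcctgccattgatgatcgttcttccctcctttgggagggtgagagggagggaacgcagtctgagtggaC
Rnu3b2: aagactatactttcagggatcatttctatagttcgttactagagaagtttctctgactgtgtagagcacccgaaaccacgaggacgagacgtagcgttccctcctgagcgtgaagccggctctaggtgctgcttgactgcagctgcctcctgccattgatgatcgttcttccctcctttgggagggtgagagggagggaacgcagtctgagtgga
Rnu3a: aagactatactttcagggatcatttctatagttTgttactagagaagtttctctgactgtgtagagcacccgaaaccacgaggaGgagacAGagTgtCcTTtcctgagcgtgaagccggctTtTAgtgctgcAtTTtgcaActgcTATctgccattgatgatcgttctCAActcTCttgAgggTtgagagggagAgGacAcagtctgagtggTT

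Snora36b (chr1:185242907-185243038, plus strand) and Gm22247 (chr4:46495155-46495285, plus strand) are shown because they had the 2 largest differences between the libraries. They are 80.3% identical, and capitals mark the bases in which each differs from the other.
Snora36b: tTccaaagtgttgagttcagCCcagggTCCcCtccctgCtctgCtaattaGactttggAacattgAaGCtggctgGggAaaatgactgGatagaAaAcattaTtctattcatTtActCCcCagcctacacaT
Gm22247: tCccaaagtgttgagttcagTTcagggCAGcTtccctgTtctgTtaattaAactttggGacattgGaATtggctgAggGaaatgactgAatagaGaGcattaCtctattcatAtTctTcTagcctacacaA

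Snora23 (chr7:110046364-110046547, plus strand) and Gm22422 (chr16:56035753-56035887, minus strand) show the 2 box motifs of the H/ACA class and went opposite ways between the libraries by TPM. Capitals mark every ANANNA (box H) in the central part of 3 equal parts and the ACA before the last 3 bases.
Snora23: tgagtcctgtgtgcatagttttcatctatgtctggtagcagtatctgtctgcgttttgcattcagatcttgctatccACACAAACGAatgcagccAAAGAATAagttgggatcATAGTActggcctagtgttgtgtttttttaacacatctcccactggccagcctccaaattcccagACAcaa
Gm22422: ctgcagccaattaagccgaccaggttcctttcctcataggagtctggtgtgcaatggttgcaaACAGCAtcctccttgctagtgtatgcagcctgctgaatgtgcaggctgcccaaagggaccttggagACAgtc

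Snord15b (chr7:99479563-99479707, minus strand), Snord21 (chr5:107904555-107904648, plus strand) and Snord17 (chr2:144265979-144266216, minus strand) show the box C/D letters in RNAs of 145, 94 and 238 bases. Capitals mark TGATGA (box C) within the first 25 bases and CTGA (box D) within the last 20.
Snord15b: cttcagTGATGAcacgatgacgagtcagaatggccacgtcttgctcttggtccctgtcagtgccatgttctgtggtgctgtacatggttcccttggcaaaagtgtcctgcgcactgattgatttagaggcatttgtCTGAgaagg
Snord21: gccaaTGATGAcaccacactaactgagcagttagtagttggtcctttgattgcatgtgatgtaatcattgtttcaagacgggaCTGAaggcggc
Snord17: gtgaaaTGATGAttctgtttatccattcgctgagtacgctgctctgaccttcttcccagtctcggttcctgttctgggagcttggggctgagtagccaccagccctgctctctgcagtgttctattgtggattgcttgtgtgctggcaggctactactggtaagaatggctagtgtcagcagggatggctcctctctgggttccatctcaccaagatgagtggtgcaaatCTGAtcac

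Most listed genes of these classes had no counts. Of the 1525 genes, 172 had a count above 0 in either library and 132 in both, and 134 reached a mean count of 10. The share that became members differed by length: 1 of 460 genes under 100 bases (0.217%), 59 of 1007 genes of 100 to under 150 bases (5.86%), 8 of 26 genes of 150 to under 200 bases (30.8%) and 18 of 32 genes of 200 bases or more (56.3%). By symbol, 27 of 41 Snora genes (box H/ACA), 6 of 97 Snord genes (box C/D), 4 of 9 Scarna genes and 5 of 5 Rnu3 genes (U3) were members, and 44 of 1373 genes with no such symbol. Of the genes under 100 bases, 357 had an effective length of 0 in both libraries. Effective length is the number of positions at which a fragment of the library could start, averaged over fragment sizes, and a gene with none has a TPM of 0 whatever its count.

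The members together held 1.05% of all counts in replicate 2 and 0.391% in replicate 1, a mean of 0.720% ± 0.465 (SD, n = 2). Their share of TPM, which divides each count by effective length, was 8.51% in replicate 2 and 10.2% in replicate 1, a mean of 9.36% ± 1.20 (SD, n = 2). The order of the libraries thus depended on the scale. Relative to nuclear protein-coding TPM the members stood at 123% in replicate 2 and 90.7% in replicate 1. Small nuclear RNAs, the largest short RNA class beside them, held 65.3% of all TPM in replicate 2 and 43.4% in replicate 1. The 10 members with most counts held 54.6% of member counts in replicate 2 and 62.3% in replicate 1.

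Scarna10 in the host gene Ncapd2, in human U85, which has both a box C/D and a box H/ACA domain, is annotated in the snoRNA class. It had the highest mean count of any member, with 17534 counts in replicate 2 and 32271 in replicate 1. In replicate 2 alone, Snora81 and Rnu3a had more. Snora81, a box H/ACA RNA in the translation factor gene Eif4a2, had 19302 counts in replicate 2 and 12466 in replicate 1. Rnu3a, a gene of U3, followed with 20356 counts in replicate 2 and 5411 in replicate 1. Gm22422 in Trmt10c had 6493 counts in replicate 2 and 13418 in replicate 1. Snora74a had nearly equal raw counts, 9467 in replicate 2 and 9611 in replicate 1. Gm23245 in the chaperonin gene Cct6a (16185 and 2226 counts in replicates 2 and 1), Snora33 in Rps12 (14954 and 2058) and Snora23 in Ipo7 (12367 and 1559) were all far higher in replicate 2. Gm23946 in Timm23 was the opposite case, with 2958 counts in replicate 2 and 9628 in replicate 1. Snord15b in Rps3, a box C/D RNA, completed the 10 with 8943 counts in replicate 2 and 2297 in replicate 1.

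The order by level was different per length. Gm22422 came top by mean TPM, with 3886 TPM in replicate 2 and 24994 in replicate 1, a mean of 14440 ± 14925 (SD, n = 2). Snora33 had 11127.5 TPM in replicate 2 and 5275 in replicate 1, and Gm23245 had 9687 TPM in replicate 2 and 4146 in replicate 1. Snora33 was above Gm23245 in both libraries, while Gm22422 was below both in replicate 2 and above both in replicate 1. Snora81 had 4057 TPM in replicate 2 and 4776 in replicate 1, and ranked 4. Snord15b, Snord22, Gm23639, Snora24, Gm25791 and Gm26079 filled the next 6 places with means between 2241 and 3315 TPM. Snora24 differed least of these, with 2716 TPM in replicate 2 and 2797 in replicate 1. Scarna10, top by mean count, ranked 22 by mean TPM, with 892 TPM in replicate 2 and 1738 in replicate 1. It is 325 bases long.

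**Figure D1:**
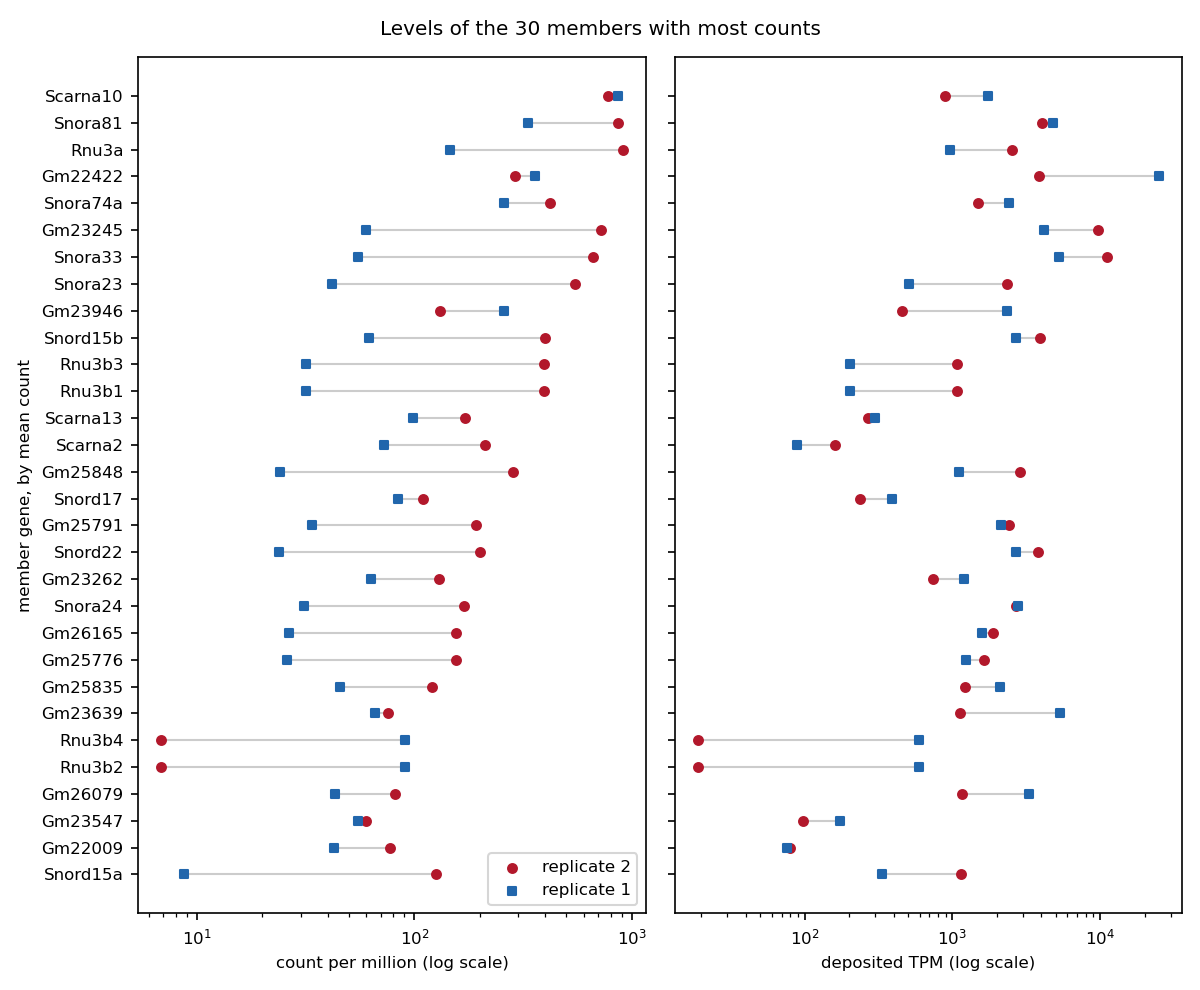
Levels of the 30 members with most counts, in CPM (left) and deposited TPM (right), both on log axes. Each row is a gene, circles are replicate 2 and squares replicate 1. By counts most circles lie to the right of their squares, with Scarna10, Gm22422, Gm23946, Rnu3b2 and Rnu3b4 the other way, while by TPM they fall on both sides.

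Between the libraries, the members were shifted towards replicate 2 in counts. Ratios are log2 of replicate 2 over replicate 1 after TMM scaling, and no test was made because each side is 1 library. Of the 86 members, 63 were at least 2-fold higher in replicate 2, against 4.66% of all 8203 genes past the same count limit. At least 2-fold higher in replicate 1 were 2 members, against 5.78% of those genes. The median log2 ratio was 2.57 over the members (quartiles 0.95 and 3.55, range -3.58 to 8.74, with the count of 0 of Snora36b in replicate 1 put at 3) and -0.03 over all genes. Exact Clopper-Pearson 95% intervals, which cover counting error only, lay above 0 for 79 members, below 0 for 5 and on both sides of 0 for 2. All 86 members had at least 100 counts in replicate 2 and 66 had them in replicate 1, so 20 members passed through replicate 2 alone and had to differ. The 66 with 100 counts in both libraries had a median log2 ratio of 1.55, and 43 of them were at least 2-fold higher in replicate 2 and 2 in replicate 1.

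By deposited TPM the shift was much smaller. The median log2 TPM ratio was 0.19 over the 84 members with TPM above 0 in both libraries, and -0.67 over all genes. At least 2-fold higher in replicate 2 by TPM were 24 members, against 1.43% of 8197 genes, and 19 were at least 2-fold higher in replicate 1, against 28.8%. By direction alone, 46 members were higher in replicate 2 and 38 in replicate 1. Among all 8197 genes these numbers were 1026 and 7143, so an even split was not the background on this scale. Of the 63 members at least 2-fold higher in replicate 2 by scaled counts, 16 were lower in it by TPM, among them Snora81, Snora24, Snora44, Snora61 and Gm26079.

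Among box H/ACA RNAs, the 27 Snora members had a median log2 ratio of 2.72, and 23 were at least 2-fold higher in replicate 2 and 0 in replicate 1. For the 20 with 100 counts in both libraries these were 2.57 and 16. Snora23 stood at a log2 ratio of 3.87 (interval 3.79 to 3.94) and Snora33 at 3.74 (3.67 to 3.81). Snora21 in Rpl23 had 1283 counts in replicate 2 and 69 in replicate 1, a log2 ratio of 5.08. Snora15 in Cct6a had 497 and 26 counts in replicates 2 and 1, and Snora31 in Tpt1 had 234 and 12. Snora21, Snora15 and Snora31 passed the count limit through replicate 2 alone, so they had to be higher there. Snora73a and Snora73b, the mouse genes of U17, which in human cells acts in the cutting of the ribosomal RNA precursor, had 1127 and 1498 counts in replicate 2, against 223 and 268 in replicate 1. At the other end of the family were Snora43 at 0.43, Snora74a at 0.86, Snora20 at 0.87 and Snora52 at 0.92.

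Snora36b had 431 counts in replicate 2 and 0 in replicate 1. Against 3 counts per library this was at least 264-fold higher in replicate 2. Its relative Gm22247 had 382 counts in replicate 2 and 1 in replicate 1, a log2 ratio of 8.74 with an interval of 6.97 to 14.76. Their hosts did not differ so: Rab3gap2, host of Snora36b, had a log2 ratio of -0.38, and Nans, host of Gm22247, had 0.31. AF357399 in Rps16 came next, with 228 counts in replicate 2 and 7 in replicate 1 (log2 ratio 5.78). Gm25117 in Nap1l1 had 279 counts in replicate 2 and 12 in replicate 1 (5.34), although Gm22988 in Eif4a1, 91.0% identical to it, had 855 and 276 in replicates 2 and 1 (2.51). Snora36b, Gm22247, AF357399 and Gm25117 all passed the count limit through replicate 2 alone, so they had to be higher there.

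Among box C/D RNAs, 5 of the 6 Snord members were at least 2-fold higher in replicate 2. The family's median log2 ratio was 3.11. For the 4 with 100 counts in both libraries it was 3.03, with 3 at least 2-fold higher in replicate 2. Snord118 and Snord21 passed the count limit through replicate 2 alone. Snord118, the U8 RNA that takes part in processing of the large-subunit ribosomal RNAs, had 620 counts in replicate 2 and 33 in replicate 1, a log2 ratio of 5.08. Snord22 (U22), which acts in ribosomal RNA processing in vertebrates, had 4498 counts in replicate 2 and 887 in replicate 1 (3.22). Snord15a and Snord15b lie in the same host, Rps3, and stood at 3.99 and 2.84. Snord21 in Rpl5, the only member under 100 bases, had 308 counts in replicate 2 and 69.98 in replicate 1, yet 1998 TPM in replicate 2 and 0 TPM in replicate 1, where its effective length was 0. Snord17, 238 bases long, was the exception at 0.53, with 2459 counts in replicate 2 and 3133 in replicate 1.

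The U3 genes gave opposite directions that their sequences do not allow to be separated. Rnu3b1 and Rnu3b3 had 8900 and 8902 counts in replicate 2, against 1183 each in replicate 1. Rnu3b2 and Rnu3b4 had 154 counts each in replicate 2, against 3390 each in replicate 1, and were the 2 members at least 2-fold higher in replicate 1. The pairs share all but the last base, so a fragment that does not reach it matches the 4 genes alike. The posterior standard deviations of the counts in the files were 3429 and 3534 for Rnu3b1 and Rnu3b3 in replicate 2, and 1957 and 1700 for Rnu3b2 and Rnu3b4 in replicate 1. Summed, the 4 Rnu3b genes had 18110 counts in replicate 2 and 9145 in replicate 1, a log2 ratio of 1.86 (interval 1.83 to 1.90). Rnu3a, which has its own differing bases and a posterior standard deviation under 1 count in both libraries, was higher still at 2.79 (2.75 to 2.83). All U3 genes together had 38466 counts in replicate 2 and 14556 in replicate 1 (2.28), or 16.3% of member counts in replicate 2 and 9.97% in replicate 1. Besides the Rnu3b genes, Gm23925 also had a posterior standard deviation over 3 times the square root of its count, and is 93.9% identical to Gm24411 in the same host, Snhg17.

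The Scarna members moved least, with a median log2 ratio of 0.77 and 1 of 4 at least 2-fold higher in replicate 2. Scarna2, at 414 bases the longest member apart from Snora43, had 4739 counts in replicate 2 and 2690 in replicate 1 (log2 ratio 1.70). Scarna13 had 3845 counts in replicate 2 and 3684 in replicate 1 (0.94). Scarna6 in Atg16l1 had 726 counts in replicate 2 and 879 in replicate 1 (0.60), and Gm25395 in the same host had 1178 and 1219 (0.83). Scarna10 was level after scaling, at -0.0018 (interval -0.03 to 0.02). Over the 10 members of the scaRNA class the median was 0.88 with 3 at least 2-fold higher in replicate 2, and over the 76 of the snoRNA class 2.68 with 60. All 20 members that passed through replicate 2 alone are of the snoRNA class. The 56 snoRNA members with 100 counts in both libraries had a median of 2.09, with 40 at least 2-fold higher in replicate 2. The Scarna family's share of member counts was 11.4% in replicate 2 and 27.1% in replicate 1, while that of Snora was 32.1% in replicate 2 and 22.1% in replicate 1.

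The 44 members with no family symbol had a median log2 ratio of 2.16, and 31 were at least 2-fold higher in replicate 2. Among the 33 of them with 100 counts in both libraries the median was 1.26, with 20. They held 31.9% of member counts in replicate 2 and 36.2% in replicate 1, and included the members lowest in replicate 2 outside U3. Gm23946 stood at -0.82 (interval -0.88 to -0.76), Gm23119 at -0.48 with 542 counts in replicate 2 and 1385 in replicate 1, and Gm22422 at -0.17 (-0.21 to -0.13). Gm22154 in Pabpc4 was level at 0.05 (-0.19 to 0.28), beside a copy 96.9% identical, Gm25788, at 0.72. Gm22422 is 80.3% identical to Snora70 in Rpl10, which had 764 counts in replicate 2 and 111 in replicate 1 and a log2 ratio of 3.65.

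Length ran with these differences. The 59 members of 100 to under 150 bases had a median log2 ratio of 2.72, and 49 were at least 2-fold higher in replicate 2. The 8 members of 150 to under 200 bases had a median of 1.17 with 5, and the 18 of 200 bases or more a median of 0.97 with 8. Among members with 100 counts in both libraries the medians were 2.53 (n = 40), 1.17 (n = 8) and 0.97 (n = 18) in the same order. The Scarna members are all 265 bases or longer and the Snora members have a median length of 137 bases, so family and length cannot be told apart here. Length alone did not order the members: at 205 bases Snora73b stood at 3.36, and at 135 bases Gm22422 stood at -0.17. Small nuclear RNAs of similar length were also shifted in counts, with 9 of 10 genes of 100 to under 150 bases (median 1.50) and 28 of 28 genes of 150 to under 200 bases (median 2.07) at least 2-fold higher in replicate 2 by counts. By TPM the medians of the same genes were -1.38 and 0.17, with 3 of the 10 and 6 of the 28 at least 2-fold higher in replicate 2, and 6 of the 10 and 0 of the 28 in replicate 1. Of the 38, 23 share reads with similar sequences. The 8076 other genes of 200 bases or more had a median of -0.04.

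**Figure D2:**
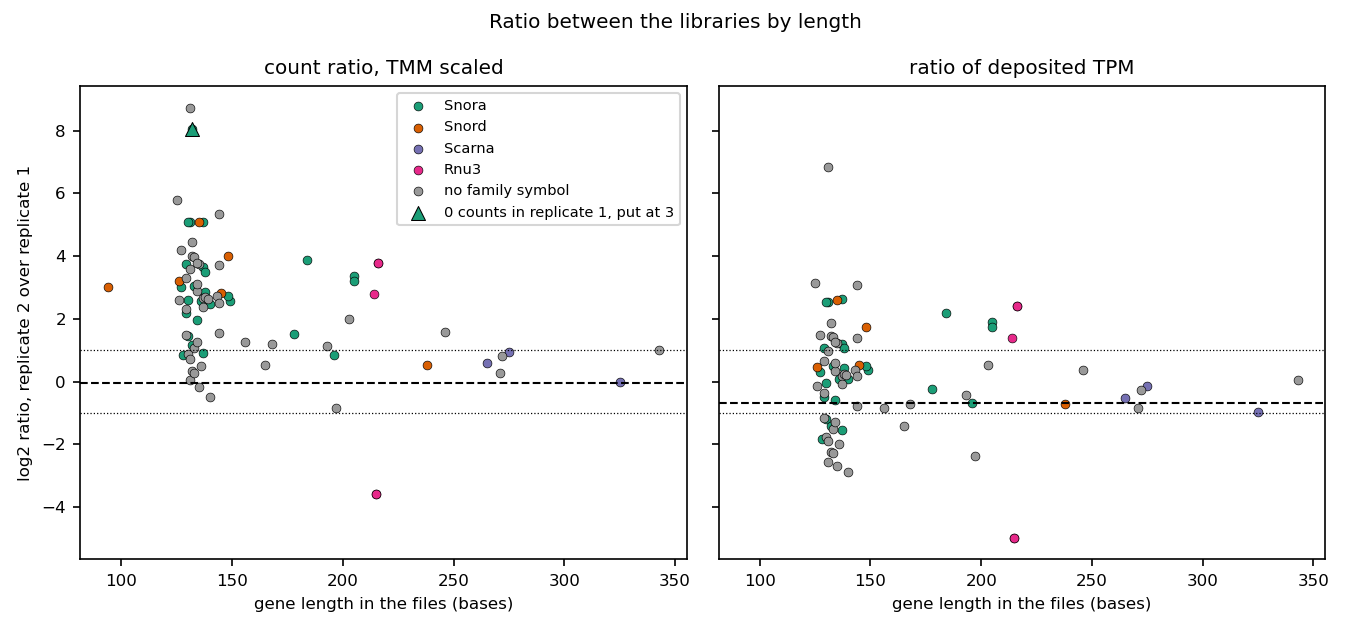
Log2 ratio of replicate 2 over replicate 1 by gene length, from TMM-scaled counts (left) and from deposited TPM (right), coloured by symbol family. Dotted lines mark 2-fold and the dashed line the median of all genes, -0.03 on the left and -0.67 on the right. Members of 100 to under 150 bases spread from -0.48 to 8.74 by counts, the triangle marks Snora36b with its count of 0 put at 3, and Scarna2 and Snora43 lie beyond the length axis.

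Effective length differed between the libraries most for the shortest RNAs. For features over 2 kb, length exceeded effective length by a median of 152 bases in replicate 2 and 190 bases in replicate 1. At 129 bases, the length of Snora33, effective length was 11.96 in replicate 2 and 2.89 in replicate 1, which is 4.14-fold. At 184 bases (Snora23) it was 46.9 in replicate 2 and 22.6 in replicate 1, and at 325 bases (Scarna10) 175 in replicate 2 and 137 in replicate 1. On the log2 scale the difference in effective length was 2.05 for Snora33 and 1.91 for Gm22422. In TPM, which also scales each library to its own total, the log2 ratio was 1.08 for Snora33 and -2.69 for Gm22422. A shift of counts with fragment size and a difference in RNA content between the cells cannot be told apart with 1 library on each side.

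**Figure D3:**
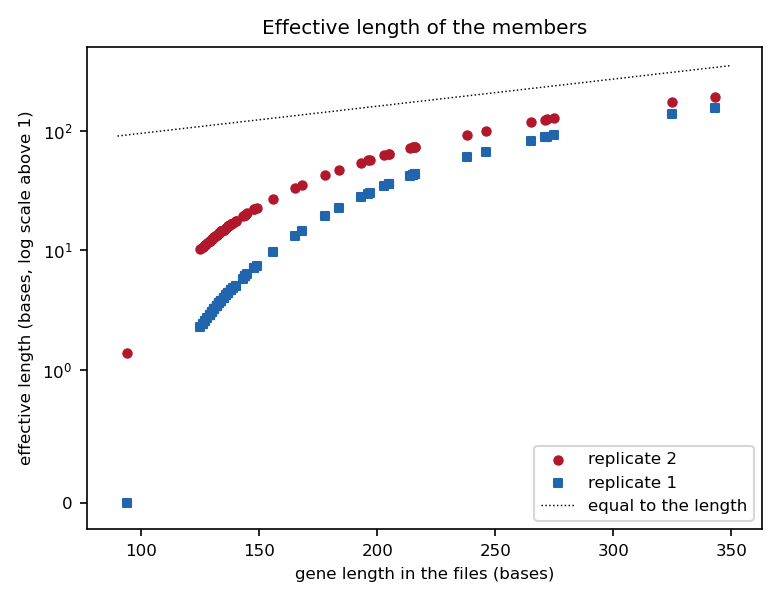
Effective length of the members against their length in the files, in bases, with circles for replicate 2 and squares for replicate 1. The libraries are 1.27-fold apart at 325 bases and 4.14-fold at 129 bases, and the 94-base Snord21 is at 0 in replicate 1.

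Of the 86 members, 79 lay within a host gene on the same strand, 43 of them in introns only and 36 overlapping an exon of at least 1 annotated transcript. There were 61 hosts, and 14 of these encoded ribosomal proteins and held 17 members. The 53 hosts past the count limit had a median log2 ratio of 0.19 (range -0.40 to 2.85). Of these hosts, 7 were at least 2-fold higher in replicate 2, against 4.66% of all genes past the limit. In replicate 1, 0 were so, against 5.78%. For 61 of the 68 members in these hosts the member's ratio exceeded its host's, by a median of 2.31 over the 68. With the 51 of them that had 100 counts in both libraries, it did so for 44, by a median of 1.27. Per annotated base, the median member had 8.33 times the counts of its host in replicate 2 and 2.80 times in replicate 1. Where a member overlaps an exon, the authors' counting could have divided reads between it and its host.

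**Figure D4:**
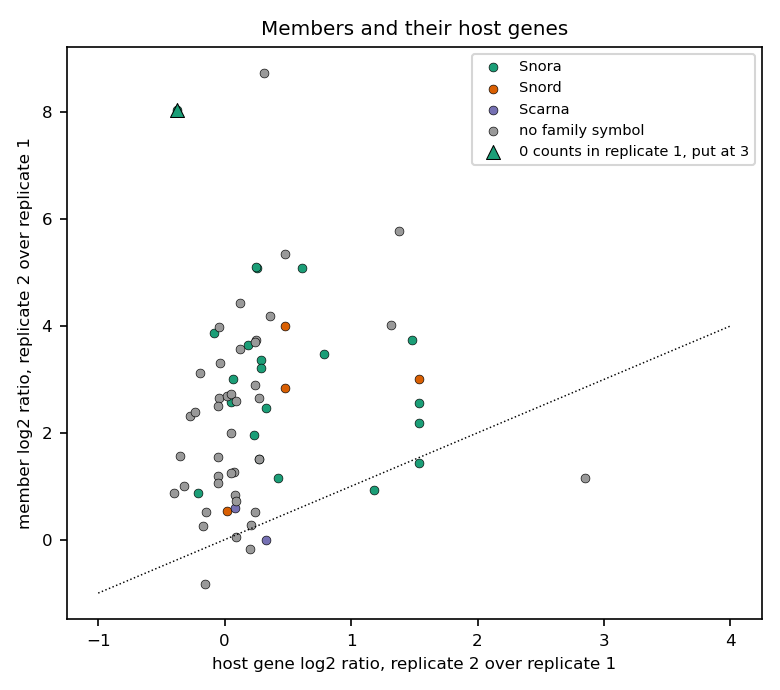
Log2 ratio of replicate 2 over replicate 1 of each member (vertical) against that of its host gene (horizontal), for the 68 members whose host passed the count limit of 100. The dotted line marks equal ratios. Most hosts lie between -0.40 and 0.60, while members spread upwards to 8.74, and 61 of 68 lie above the line. The triangle marks Snora36b with its count of 0 in replicate 1 put at 3.

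Members of 1 host were close in level in some hosts and far apart in others. Of the 13 hosts with more than 1 member, 4 held members with mean counts within 1.5 times of each other: Snhg17 (1.15 times), Snx5 (1.25), Rcc1 (1.31) and Atg16l1 (1.49). Eif4a2 held Snora81, Gm24616 and Gm26447, with mean counts from 185 to 15884, an 86.1-fold span, and log2 ratios from 1.50 to 2.65. In Rpsa, Gm26448, Snora62 and Gm24044 spanned mean counts from 443 to 918 and ratios from 1.26 to 2.58, around a host ratio of 0.05. Snora44, Snora61 and Snora16a lie in the long noncoding RNA Snhg12, whose own log2 ratio was 1.53, and stood at 2.18, 1.44 and 2.56. Tex14 holds the 4 Rnu3b genes in introns and itself had 18 counts in replicate 2 and 24 in replicate 1. In Snx5, Snord17 and Gm26165 had ratios of 0.53 and 2.70.

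The core proteins of these particles are few, and 2-fold differences were rare among all genes (4.66% higher in replicate 2 and 5.78% in replicate 1), so their counts show nothing particular to them. Of the box C/D core proteins, Fbl, Nop56, Nop58 and Snu13, 0 of 4 differed by 2-fold in either direction, and their median log2 ratio was 0.21. Fbl, the methyltransferase, had 227 counts in replicate 2 and 360 in replicate 1, and 26.8 ± 3.34 coding-scaled TPM (SD, n = 2). Of the box H/ACA core proteins, Dkc1, Nop10 and Nhp2 had enough counts, and 0 of 3 differed by 2-fold (median -0.29). Dkc1, the pseudouridine synthase, had 745 counts in replicate 2 and 1217 in replicate 1 (log2 ratio 0.17), and Gar1 had 50 and 66 counts. Of 16 assembly and trafficking factors, 11 had enough counts. Naf1, an assembly factor of H/ACA particles, was at least 2-fold higher in replicate 1, and 0 were so in replicate 2. It had 38 counts in replicate 2 and 170 in replicate 1. Naf1 thus passed the count limit through replicate 1 alone and had to have more counts there. Coil, the coilin protein of Cajal bodies, had 0 counts in replicate 2 and 51 in replicate 1, and was marked as sharing reads by its posterior standard deviation.

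Other stable RNAs differed by gene. Rmrp, the RNA of a ribonuclease that cuts the ribosomal RNA precursor, had 159731 counts in replicate 2 and 125457 in replicate 1, a log2 ratio of 1.23. Terc, the telomerase RNA with a box H/ACA domain, had 267 counts in replicate 2 and 142 in replicate 1 (1.78). Rpph1, the RNA of ribonuclease P, stood at -0.72, and Rn7sk and the read-sharing pair Rn7s1 and Rn7s2 all stood at 0.09, so 2 of these 6 were at least 2-fold higher in replicate 2 and 0 in replicate 1. Of 11 long noncoding hosts on a list set beforehand, 10 were found in the files and 4 had enough counts. The list does not cover every host of the members, and Snhg17 is not on it. Snhg12 (1.53) and Snhg20 (2.85) were at least 2-fold higher in replicate 2 and Snhg5 (-1.08) in replicate 1. Snhg20 had 395 counts in replicate 2 and 99.9 in replicate 1, so it passed through replicate 2 alone and had to be higher there. Gas5 stood at 0.60 with 3764 counts in replicate 2 and 4554 in replicate 1. Over all genes past the limit, 4.66% were at least 2-fold higher in replicate 2 and 5.78% in replicate 1. Both lists are too short to set against these shares. Rian and Mirg had 0 counts.

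The sequences of the members were also searched for the box letters on the RNA strand only. ACA before the last 3 bases was found in 51 members (59.3%) and in 233 of the 1439 other listed genes (16.2%). ANANNA in the central part of 3 was common in both, at 84.9% of members and 77.1% of the others. The 2 together were found in 55.8% of members and 13.4% of the others. At 100 to under 150 bases these shares were 69.5% of members and 18.9% of the others. In longer genes they were close, at 37.5% and 38.9% for 150 to under 200 bases and 22.2% and 21.4% for 200 bases or more. TGATGA in the first 25 bases with CTGA in the last 20 was found in 11 members (12.8%) and in 302 of the others (20.99%). By length this order turned: of the genes of 100 to under 150 bases 6.78% of members and 0.738% of the others held the pair, and of those of 200 bases or more 33.3% of members and 0 of the others. Under 100 bases were 1 member and 459 of the others, and 64.3% of those 459 held it. The 48 members with both H/ACA letters had a median length of 134 bases and a median log2 ratio of 2.68. The 11 with both C/D letters had a median length of 238 bases and a median ratio of 1.00. Both sets include members that passed through replicate 2 alone and had to differ, Snora36b and Snord21 among them. Medians without such members were not computed for these sets. Of the 11, 4 were Snord and 2 Scarna genes. The other 27 members had neither pair of letters, the 5 U3 genes among them.

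Just inside the count limit were Gm25777, Gm25517, Gm22486 and Snora34, with mean counts of 101.5 to 108 and log2 ratios of 2.59, 3.77, 2.39 and 3.48. They had 156 to 186 counts in replicate 2 and 24 to 55 in replicate 1. Each thus passed through replicate 2 alone and had to be higher there. Just outside were Snora30, Snord47, Gm22884 and Snora5c, with mean counts of 74.99 to 89.5 and ratios of 2.85, 3.22, 3.20 and 0.72.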

How the data were processed

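Expression was measured by total RNA sequencing in 2 libraries of 1 group. The assembly was mm10, per the labels, and the text record deposited with the files names GENCODE release M4. For the aligner and the quantification program, the sources used here give no name. The authors' gene tables, per the file headers, hold expected counts (estimated counts that need not be whole), their posterior means and standard deviations, effective lengths and TPM. Of 43346 Ensembl genes, 42462 (98.0%) matched GENCODE release M21, which gave symbols, classes, hosts and transcript sequences. Other features (26345) were left out of library sizes.

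Expected counts were rounded and scaled with TMM factors (edgeR 4.0.16, R 4.3.3), with 0.5 added for ratios. A ratio counted as different at 2-fold. Exact Clopper-Pearson 95% intervals cover counting error only, as reads without molecular identifiers are not independent molecules. No p-value is given. DESeq2 1.42.0 size factors, other scalings, deposited TPM and other count limits were alternatives. The calculation was tested on simulated data. Pairwise identities came from global alignments (Biopython 1.88). A posterior standard deviation above 3 times the square root of a gene's count marked it as sharing reads.

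The members, lists and comparisons were chosen with earlier results of these data known. Genes were named by rule: Rnu3 and Scarna members, the 10 highest by count and by TPM, the 6 highest and 6 lowest ratios, 4 on each side of the count limit, members of the 5 hosts with most members, members sharing reads, and lists of core proteins, assembly factors, long noncoding hosts, other stable RNAs and cell markers. Other names, among them near-identical copies, Snora73a, Snora73b, Snora21, Snora20, Snora43, Snora52, Snora70, Snord15a, Snord17, Snord21 and Snord118, were chosen after their values were seen. The length of Snora43 in the files is 2163 bases, against 139 in release M21, and its TPM follows the files.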

Additional observations from a re-analysis of the deposited data

How the results depend on the processing

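Medians over members stayed within 0.18, the typical counting error of a ratio, and counts of members within 1.5 times, under DESeq2 size factors, library size alone, scaling to nuclear protein-coding counts and posterior mean counts. Leaving out Snora43, chosen after seeing the data, did the same. Of the 86 members, 37 left their own intervals with library size alone, 3 with posterior mean counts and 0 with the other 2 scalings, with no change of direction for any that differed by 2-fold. Library size alone moved the median of all genes to -0.18, and 30.4% of all 2-fold differences were then higher in replicate 2, against 44.6% with TMM. With deposited TPM this share was 4.72%.

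By deposited TPM, 24 members were 2-fold higher in replicate 2 and 19 in replicate 1, with a median log2 ratio of 0.19. By coding-scaled TPM these were 39, 12 and 0.90. On both TPM scales the Snora median exceeded that of Scarna by 0.67 (1.95 by counts), the class of 100 to under 150 bases exceeded that of 200 or more by 0.37 (1.76 by counts), and members exceeded their hosts by a median of 0.67 (2.31 by counts). Deposited TPM turned the medians of members with no family symbol to -0.0005 and of 150 to under 200 bases to -0.69, which by coding-scaled TPM were 0.71 and 0.016. It turned 16 members: Snora81 (-0.24), Snora24 (-0.042), Gm23262 (-0.70), Gm25835 (-0.78), Gm26079 (-1.50), Snora44 (-0.48), Snora61 (-1.20), Gm23442 (-1.27), Gm26083 (-0.42), Snora64 (-0.59), Gm25492 (-0.35), Gm24044 (-0.83), Snora41 (-1.43), Gm26447 (-1.16), Gm22486 (-0.069) and Gm25777 (-0.13). Coding-scaled TPM turned 7: Gm25835 (-0.074), Gm26079 (-0.80), Snora61 (-0.49), Gm23442 (-0.57), Gm24044 (-0.12), Snora41 (-0.72) and Gm26447 (-0.45).

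Other limits were mean counts of at least 10, of at least 1000 and above 0. At least 2-fold higher in replicate 2 were then 105 of 134, 23 of 36 and 134 of 172 genes. The medians were 2.76, 1.52 and 2.84. The Snora excess over Scarna was then 1.09, 1.24 and 1.35. With no limit the length difference was 1.98 and 6 genes were higher in replicate 1. Without members that share reads, or with the Rnu3b genes summed (chosen after seeing the data), 0 were.

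The members' share was 1.34% relative to nuclear protein-coding counts, 107% relative to nuclear protein-coding TPM and 2.93% as counts per annotated base. Of the 10 highest by TPM, 5 stayed in the top 10 by counts per annotated base. Leaving out 1 replicate gave count shares of 0.391% to 1.05%, TPM shares of 8.51% to 10.2%, and 8 to 9 of those 10. No paired analysis was possible because there is 1 group.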

Other observations

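Short box C/D genes had counts that their TPM does not show. Among the listed genes under 100 bases with an effective length of 0 in both libraries, 16 had counts and a TPM of 0. Snord47 had 130 counts in replicate 2 and 25 in replicate 1, and Snord33 had 127 in replicate 2 and 13 in replicate 1. Snord87 had 59 counts in replicate 2 and 2 in replicate 1. Snord13 and Snord23 had an effective length of 0 in replicate 1 alone and so had a TPM above 0 in replicate 2 only. Snord13, which guides acetylation of the small-subunit ribosomal RNA in human cells, had 56 and 14 counts in replicates 2 and 1, with 156 TPM in replicate 2 and 0 TPM in replicate 1. Snord23 had 56 counts in replicate 2 and 53 in replicate 1, with 113 TPM in replicate 2 and 0 TPM in replicate 1.

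Of the imprinted Snord116 cluster, known from neurons, 17 genes were listed and 0 had a count. Their median length was 94 bases. Of all 460 listed genes under 100 bases, 22 had a count in either library, so the 17 do not stand apart at this length. The long noncoding RNA Meg3 had 1 count in replicate 2 and 0 in replicate 1.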
